A study of Mus musculus with 48 samples.

Results

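The genes followed here are 10 genes of the vessel wall, namely Sele, Selp, Icam1, Vcam1, Ackr1, Vwf, Pecam1, Cdh5, Lrg1 and Plvap. They were listed by name as endothelial adhesion and vessel activation genes. No rule on measured values chose them, but earlier results of these data were known when the list was made. All 10 were found among the 34586 genes of the UMI table (a UMI, or unique molecular identifier, marks 1 captured mRNA molecule). The study used Seq-Well, a microwell method for single-cell RNA sequencing, on organs of male DBA1/J mice aged 8 to 12 weeks. Collagen-induced arthritis (CIA) was produced by immunisation with bovine collagen II in complete Freund's adjuvant and a booster in incomplete Freund's adjuvant, and the healthy mice received saline, so adjuvant and collagen were given together and only to the CIA group. The 4 healthy mice are called H3, H4, H6 and H7, and the 6 CIA mice S1, S2, S3, S5, S6 and S8. The sample names fall into 2 experiments: 2CIA holds H3 and the severe mice S1, S2 and S3 (arthritis score 8), and CIA holds H4, H6, H7 and the mild mice S5, S6 and S8 (scores from 2 to 5), so severity and experiment cannot be told apart. Joint was compared with muscle over all samples without a term for the mouse, and CIA with healthy mice within each organ. H3, H4, S1 and S5 gave endothelial samples of both organs, and fits with the mouse as a block are given as an alternative.

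Leukocytes leave the blood by a known sequence of steps at the vessel wall. E-selectin (Sele) and P-selectin (Selp) catch rolling leukocytes by their sugar ligands, the immunoglobulin-type adhesion molecules ICAM-1 (Icam1) and VCAM-1 (Vcam1) bind leukocyte integrins and hold the cells firmly, and PECAM-1 (Pecam1) and VE-cadherin (Cdh5) form the junctions that leukocytes cross. Ackr1 is a chemokine-binding receptor typical of venules, Vwf encodes von Willebrand factor, which is stored with P-selectin in endothelial granules, and Plvap encodes the protein of the diaphragms that span endothelial fenestrae and caveolae. Lrg1 encodes a secreted leucine-rich glycoprotein that takes part in vessel growth through TGF-beta signalling and is also made by neutrophils. Inflammatory cytokines are known to induce Sele, Selp, Icam1 and Vcam1 in endothelial cells.

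Of the 12096 cells with a deposited cell type label, 553 were labelled endothelial, of which 258 came from joint, 240 from muscle and 40 from skin. Cdh5, Pecam1 and Fabp4 were among the markers by which the labels were made, so their presence in these cells was not an independent measurement. Of 14 other pan-endothelial genes, all 14 had a UMI in joint endothelial cells of CIA mice and all 14 in those of healthy mice, and 70.5% of joint and 90.4% of muscle endothelial cells held at least 1 UMI of that list. A sample of 1 mouse entered the endothelial comparisons if it had at least 5 endothelial cells. These samples were H3 (30 cells), H4 (13), S1 (108), S3 (7), S5 (76) and S6 (20) in joint, and H3 (16), H4 (57), H6 (7), H7 (14), S1 (8) and S5 (132) in muscle. Their endothelial totals ran from 6822 to 164466 UMIs, so that a count of 0 allows a level of up to 440 CPM (a gene's UMIs per 1000000 UMIs of the sample) in the smallest library and 18.2 CPM in the largest. A cell barcode was shared between samples in 59 cases, none of them an endothelial cell. Genes of other cells were also counted in the endothelial cells. The 4 granulocyte markers Camp, Ngp, S100a8 and S100a9, all 4 of them detected, summed to 5617 to 29545 CPM in joint healthy, 6394 to 121020 in joint CIA, 2605 to 26000 in muscle healthy and 939 to 48265 in muscle CIA samples. Red cells had been lysed in the muscle of H6, H7, S2, S3, S6 and S8. The 8 red cell markers summed to 649 to 38072 CPM in joint CIA, 5106 to 20184 in joint healthy and 433 to 138144 in muscle healthy samples. The T cell, B cell and platelet marker lists each summed to at most 147 CPM in any endothelial sample, and 6 of the 8 platelet markers were at 0 in all of them.

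Each gene was placed on the GRCm38 mouse genome by its GENCODE M21 record, since the table gives symbols only. Sele (chromosome 1, 164048234 to 164057677, plus strand) and Selp (chromosome 1, 164115264 to 164150026, plus strand) are neighbours on one chromosome, on which Ackr1 also lies (173331886 to 173333750, minus strand). Icam1 is on chromosome 9 (21015985 to 21028817), Vcam1 on chromosome 3 (116109949 to 116129688), Plvap on chromosome 8 (71497765 to 71511752), Cdh5 on chromosome 8 (104101625 to 104144511) and Lrg1 on chromosome 17 (56119678 to 56122001). Exons of Ackr1 overlap those of Cadm3 on the same strand, and Cadm3 had 18 UMIs in endothelial cells, so that a split of reads between these genes was not tested. Exons of Selp overlap 2 genes of the opposite strand, Gm16548 and Gm16587, with 10 and 8 endothelial UMIs.

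The selectin and Icam1 promoters are shown because those 3 genes were found together in single joint cells, as described further on. The 160 bases before the RefSeq start on GRCm38.p6 are printed 5′ to 3′, with matches to the kappaB-like letters GGNNNTTCC in capitals, on either strand.
Sele, chr1:164048074-164048233, plus strand: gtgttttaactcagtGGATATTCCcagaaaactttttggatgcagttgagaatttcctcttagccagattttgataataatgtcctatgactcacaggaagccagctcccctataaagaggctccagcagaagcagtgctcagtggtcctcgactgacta
Selp, chr1:164115104-164115263, plus strand: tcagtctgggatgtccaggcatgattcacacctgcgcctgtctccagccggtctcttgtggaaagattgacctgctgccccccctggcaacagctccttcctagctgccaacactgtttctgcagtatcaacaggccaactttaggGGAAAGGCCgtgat
Icam1, chr9:21015780-21015939, plus strand: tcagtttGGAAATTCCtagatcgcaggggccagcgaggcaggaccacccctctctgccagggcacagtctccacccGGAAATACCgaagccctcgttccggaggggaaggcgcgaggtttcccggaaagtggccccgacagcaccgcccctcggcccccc
The kappaB-like letters were matched 2 times in Icam1 and 1 time each in Sele, Selp, Ackr1 and Lrg1, the 5 of 10 members with a promoter sequence. Over windows of 250 bases before to 50 after a start, 18.5% of 32851 promoters held such a match. The AP-1-like letters TGANTCA were in the Sele and Selp windows and in 7.81% of all windows, and TATAAA was in those of Sele, Icam1 and Lrg1 and in 13.6% of all. A match is a description of these letters and was not tested for binding.

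The 10 genes differed in how much of their RNA came from endothelial cells. Endothelial cells made up 4.57% of the labelled cells of all 5 organs and 5.61% of their UMIs. They held 83.0% of the 153 Sele UMIs, 83.2% of the 292 Selp UMIs and 80.1% of the 171 Cdh5 UMIs. Vwf (63.9% of 36 UMIs), Ackr1 (62.5% of 64) and Plvap (56.8% of 280) followed, and fibroblasts held a further 31.1% of the Plvap UMIs. Ackr1 is also a red cell antigen, and erythrocytes held 14.1% of its UMIs. Pecam1 was shared with leukocytes, with 45.4% of 527 UMIs in endothelial cells and 14.4% in B cells. Icam1 was spread over fibroblasts (18.8% of 1011 UMIs), endothelial cells (16.3%), myocytes (15.5%) and T cells (14.9%). Vcam1 was mostly outside the endothelium, with 44.1% of 186 UMIs in fibroblasts and 12.4% in endothelial cells. Lrg1 was mainly a granulocyte transcript here, with 61.3% of 1175 UMIs in granulocytes and 9.7% in endothelial cells.

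**Figure D1:**
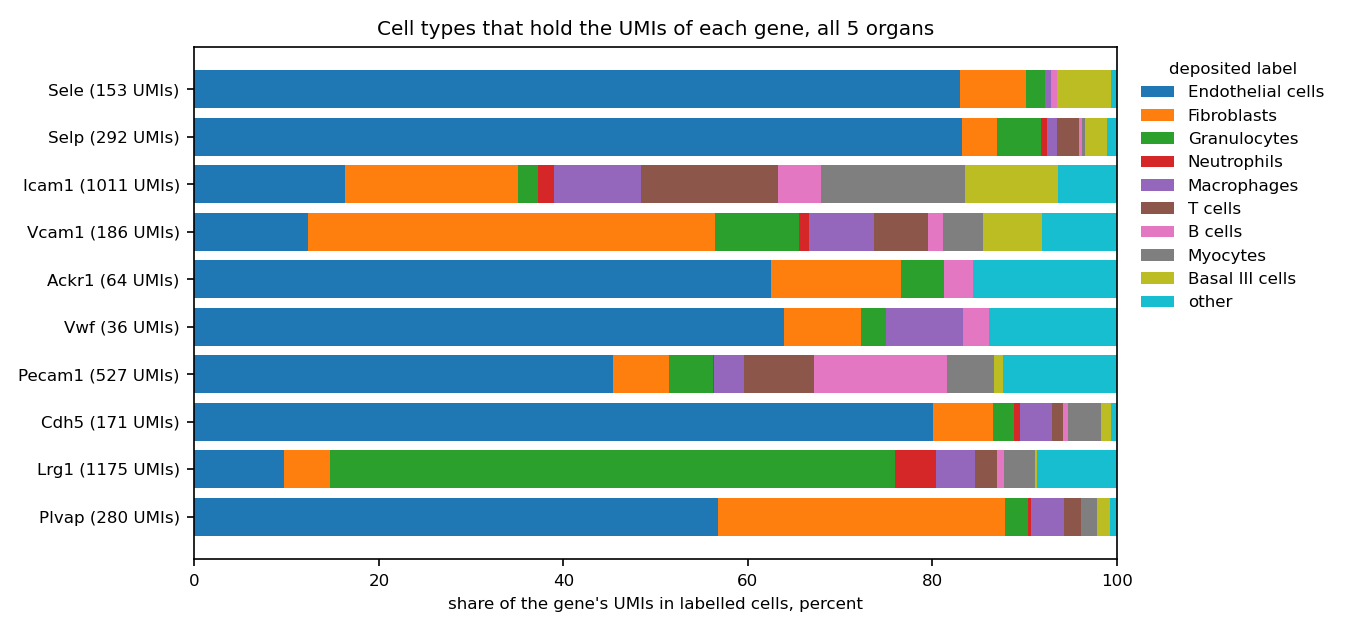
Each bar gives 1 gene, and its colours the percent of that gene's UMIs in labelled cells of all 5 organs that fell in each deposited cell type. Endothelial cells held 83.0% of Sele, 83.2% of Selp and 80.1% of Cdh5 UMIs, but 12.4% of Vcam1 and 9.7% of Lrg1 UMIs.

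Joint endothelial cells were first set against muscle endothelial cells, with all mice together. No member passed the test, and no gene did: 0 of 394 genes tested were called (0% called), where a call is an adjusted p below 0.05 in edgeR's quasi-likelihood test. At an unadjusted p below 0.05 there were 47 genes (11.9%), and DESeq2 called 3 genes and 0 members. Sele, Selp and Pecam1 were the 3 members that passed the filter on low counts, and the values of the other 7 come from the same fit without the filter, over 17866 genes. The fitted log2 fold change was above 0 for 9 of 10 members with a median of 1.46, beside a median of -0.04 and 48.7% above 0 over all genes. Without Vcam1 and Ackr1, for which the muscle level rests on 3 and 4 UMIs, the median of the other 8 was 0.85.

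Plvap, the diaphragm gene, was higher in joint than in muscle endothelium in the fitted estimate. In joint it was 511 CPM in H3, 1149 in H4, 501 in S1, 147 in S3, 207 in S5 and 417 in S6. In muscle it was 0 CPM in H3, 59.9 in H4, 289 in H6, 550 in H7, 0 in S1 and 66.9 in S5. Each of the 4 mice with both organs (H3, H4, S1 and S5) was higher in joint, although the ranges overlapped through the healthy muscle samples H6 and H7. The fitted log2 fold change of joint over muscle was 2.04 ± 0.68 (SE, 6 against 6 samples), with unadjusted p = 0.00283 and adjusted p = 1 over the unfiltered genes in edgeR. It was above 0 in 23 of 23 alternatives, the lowest being 1.76. Pooled over samples, 105 UMIs in joint and 23 in muscle gave a ratio of 4.56 (95% interval 2.88 to 7.51, exact and covering counting error only).

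The selectins were higher in joint in the pooled counts. Their CPM was also higher in the joint than in the muscle of H3, S1 and S5, while both organs of H4 were at 0. In the muscle of S1 a count of 0 allows 402 CPM, above its joint values of 276 for Selp and 174 for Sele, so S1 cannot be ordered. In the muscle of H3 it allows 230 CPM, beside 238 for Sele in joint. The direction of the fitted estimate, which weighs mice and not cells, changed when 1 healthy joint, H3, was left out. H4 is then the only healthy joint, as it is in the CIA experiment alone. It had 13 endothelial cells, where a count of 0 allows 383 CPM. Selp was 681 CPM in H3, 0 in H4, 276 in S1, 440 in S3, 554 in S5 and 973 in S6 in joint. In muscle Selp was 0 in H3, H4 and S1, 144 in H6, 458 in H7 and 97.3 in S5. Its log2 fold change was 2.24 ± 0.85 with unadjusted p = 0.0203 and adjusted p = 0.289 (edgeR), and pooled counts of 130 and 22 UMIs gave a ratio of 5.9 (3.74 to 9.74). Without joint H3 the Selp estimate was -1.34, and in the CIA experiment alone it was -1.46. With the mouse as a block it was 4.15 with adjusted p = 0.320.

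Sele, the selectin made on demand by activated endothelium, was 238 CPM in H3, 0 in H4, 174 in S1, 0 in S3, 291 in S5 and 880 in S6 in joint. In muscle Sele was 0 in H3 and H4, 867 in H6, 91.7 in H7, 134 in S1 and 12.2 in S5. The joint range thus enclosed the muscle range, and the highest muscle value came from a healthy library of 7 cells. The log2 fold change was 1.94 ± 1.21 with adjusted p = 0.523 (edgeR), -1.03 without joint H3 and -0.49 in the CIA experiment alone. Pooled counts of 74 and 10 UMIs gave a ratio of 7.39 (3.8 to 16.0). These counts were concentrated in few cells: over joint and muscle, 5 cells held 48.8% of the 84 endothelial Sele UMIs, and the highest held 15.

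Among the firm adhesion genes, Icam1 was 477 and 511 CPM in the healthy joints H3 and H4, and 266, 293, 282 and 324 in S1, S3, S5 and S6. In muscle Icam1 was 0, 74.9, 289 and 733 in H3, H4, H6 and H7, and 0 and 237 in S1 and S5. The joint samples were thus close to each other while the muscle samples spread widely. The log2 fold change was 0.71 ± 0.64 (unadjusted p = 0.27). Vcam1 was seen in joint at 102 CPM in H3, 0 in H4, 20.4 in S1, 147 in S3, 9.4 in S5 and 278 in S6, and in muscle in S5 alone (18.2). The pooled Vcam1 counts were 13 in joint and 3 in muscle, a ratio of 4.33 (1.19 to 23.7).

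Ackr1, the venular chemokine receptor, was 170 CPM in H3, 0 in H4, 10.2 in S1, 0 in S3, 94.0 in S5 and 232 in S6 in joint, and in muscle it was seen in S5 alone (24.3). Pooled counts of 21 and 4 gave a ratio of 5.24 (1.77 to 21.0). Vwf was sparse in both organs, with 11 and 8 UMIs and a ratio of 1.37 (0.503 to 3.93). Lrg1 was 102 and 128 CPM in the healthy joints and 337, 147, 254 and 556 in S1, S3, S5 and S6, against 76.6, 44.9, 0 and 91.7 in the healthy muscles H3, H4, H6 and H7 and 134 and 109 in S1 and S5. The Lrg1 log2 fold change of joint over muscle was 0.98 ± 0.80 (unadjusted p = 0.216) and above 0 in 23 of 23 alternatives.

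The junction genes, which mark endothelium wherever it lies, showed the smallest fitted differences. Pecam1 was 255 to 767 CPM over the 6 joint samples and 201 to 733 over the 6 muscle samples, with a log2 fold change of 0.00 ± 0.61 and adjusted p = 0.999 (edgeR). Cdh5 was 0 to 586 CPM in joint and 105 to 536 in muscle, with a log2 fold change of 0.25 ± 0.66 (unadjusted p = 0.704). Pooled UMIs gave ratios of 1.78 (1.33 to 2.4) for Pecam1 and 1.56 (1.07 to 2.29) for Cdh5, in which the samples with more cells weigh more.

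**Figure D2:**
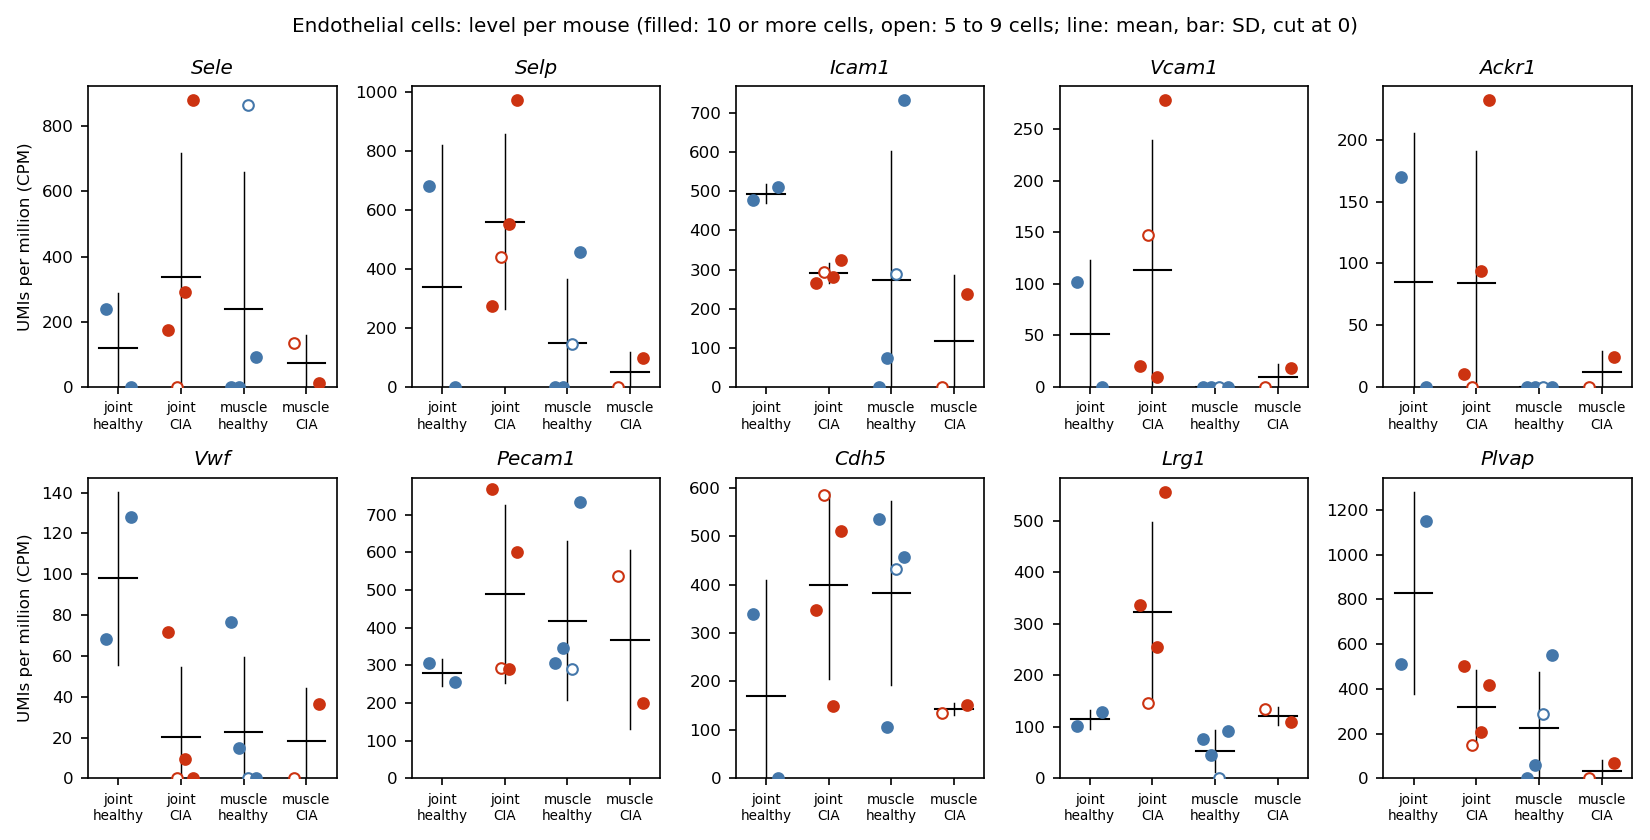
Each panel shows 1 gene, with a point per mouse for the level in endothelial cells in CPM (filled for 10 or more cells, open for 5 to 9), the group mean as a line and the SD as a bar that is cut at 0. Plvap lies between 147 and 1149 CPM in joint and between 0 and 550 in muscle. Lrg1 in joint lies at 147 to 556 in the 4 CIA samples and at 102 and 128 in the healthy ones. Its values in S3 (147) and H4 (128) rest on 1 UMI each and cannot be ordered.

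Cell by cell, Plvap, Sele, Selp and Lrg1 were counted in a larger share of joint than of muscle endothelial cells. A Plvap UMI was present in 21.7% of the 258 joint endothelial cells (95% exact binomial interval 16.8 to 27.2), in 6.25% (3.54 to 10.1) of the 240 muscle endothelial cells and in 1.86% of 161 joint T cells, which should lack the gene. The median depth was similar, at 764, 842 and 826 UMIs per cell. With each cell thinned to 400 UMIs the Plvap shares were 11.6%, 2.92% and 0.621%, and no cell was shallower than that. A Sele UMI was present in 10.5% (7.01 to 14.9) of joint and 2.08% (0.68 to 4.79) of muscle endothelial cells and in 0 of 161 joint T cells, which allows a share of up to 1.86%. Thinned, the Sele shares were 5.81% and 0.833%. Selp was present in 15.1% and 5.0% and in 3.73% of joint T cells, and thinned in 9.69%, 0.833% and 1.24%. In muscle T cells Selp was in 0 of 1283 cells (median 579 UMIs), which allows a share of up to 0.234%. Icam1 had overlapping intervals, at 17.8% (13.4 to 23.1) in joint and 16.2% (11.8 to 21.5) in muscle endothelial cells, with 8.7% of joint and 8.34% of muscle T cells. Lrg1 was present in 21.3% and 9.17%, with 4.35% of joint T cells. Intervals overlapped for Vcam1, at 2.71% (1.1 to 5.51) in joint and 1.25% (0.259 to 3.61) in muscle, and thinned it was in 0.775% and 0.833%. They also overlapped for Ackr1, at 4.65% (2.43 to 7.98) and 0.833% (0.101 to 2.98), and thinned it was in 1.55% and 0.833%. Cells of 1 mouse share their source, so these intervals cover counting error and not the spread between mice.

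**Figure D3:**
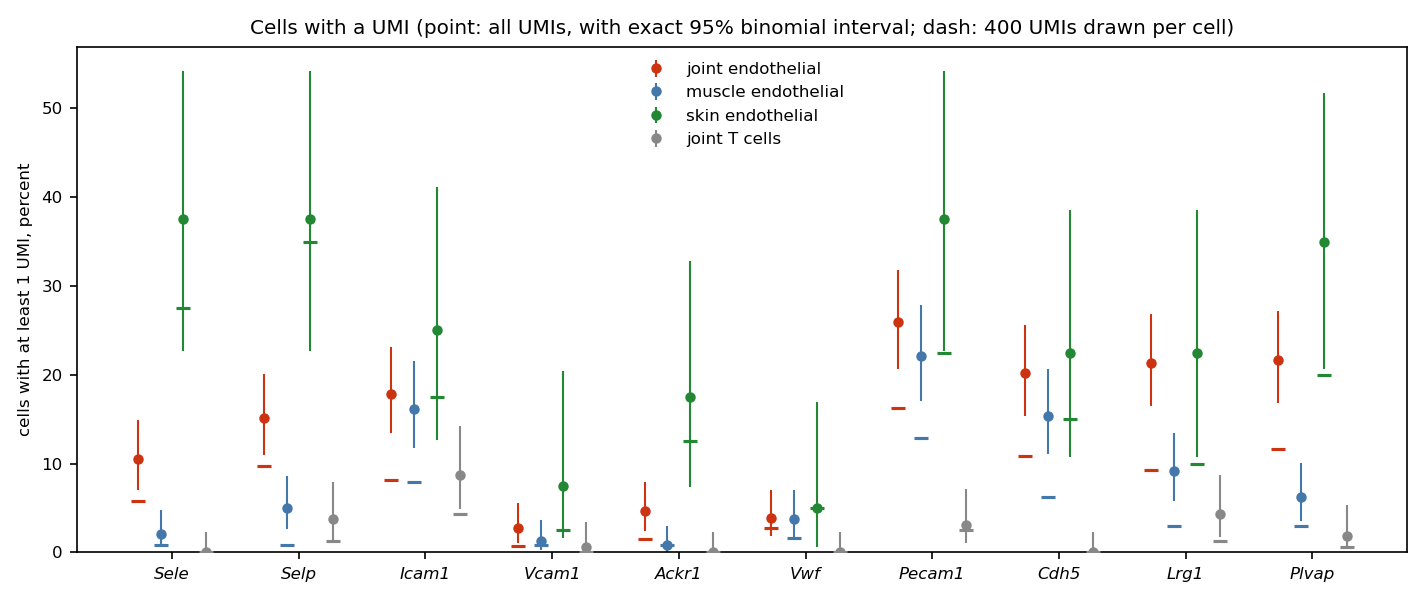
Percent of cells with at least 1 UMI of each gene, as a point with its exact 95% binomial interval for all UMIs and as a dash after thinning to 400 UMIs per cell, for joint, muscle and skin endothelial cells and for joint T cells. Plvap stands at 21.7% in joint and 6.25% in muscle endothelial cells, whereas Icam1 stands at 17.8% and 16.2%.

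Sele and Selp were found in the same joint cells. Of the 27 joint endothelial cells with a Sele UMI, 20 (74.1%) also held a Selp UMI, against 19 of the 231 others (8.23%). Of the same 27 cells, 17 (63.0%) held an Icam1 UMI, against 29 of 231 (12.6%). The cells with Sele were deeper, with a median of 1491 against 714 UMIs. After thinning to 400 UMIs, 8 of 15 cells with Sele (53.3%) held Selp against 7.0% of the others, and 5 of 15 (33.3%) held Icam1 against 6.58%. Ackr1 showed a like pattern, in that 10 of 12 cells with Ackr1 (83.3%) held Selp against 11.8% of the rest, but their median depth was 2020 against 720 UMIs and 4 such cells were left after thinning. Lrg1 did not follow Selp once depth was equal: 29.1% of Lrg1 cells and 11.3% of the others held Selp with all UMIs, and 8.33% and 9.83% after thinning. In muscle, 3 of 5 cells with Sele held Selp, too few to describe further. In joint 34.5% of endothelial cells held UMIs of 2 or more members and in muscle 20.0%.

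Among the 3 organs with at least 40 endothelial cells, skin had the highest shares of cells with a selectin UMI. Sele and Selp were each present in 15 of the 40 skin cells (37.5%, 22.7 to 54.2), Plvap in 35.0% and Ackr1 in 17.5%, at a median of 706 UMIs per cell. The 3 skin samples with at least 5 endothelial cells were uneven. Selp was 6272 CPM in healthy H6, 1134 in S2 and 561 in S3, and Sele was 818, 1417 and 0. With 1 healthy sample, CIA and healthy skin endothelium could not be compared by a test. Of the 15 skin cells with Sele, 11 (73.3%) held Selp, against 4 of the 25 others (16.0%), and after thinning 7 of 11 (63.6%) against 24.1%.

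The effect of CIA was then tested within joint endothelial cells, in 4 CIA and 2 healthy samples. No gene was called by edgeR (0 of 394, 0% called), 24 genes had an unadjusted p below 0.05, and DESeq2 called 1 gene, which was no member. Lrg1 had the largest member difference. As given above, its 4 CIA samples were at 147 to 556 CPM and the 2 healthy ones at 102 and 128. The values of S3 (147) and H4 (128) rest on 1 UMI each. Both are below what a count of 0 allows in those libraries (440 and 383 CPM), so they cannot be ordered. The log2 fold change was 2.05 ± 1.09 (unadjusted p = 0.0608, adjusted p = 0.821 over the unfiltered genes, edgeR). The estimate was 1.59 to 2.49 over 23 alternatives, 2.00 in the CIA experiment alone and 1.74 in 2CIA alone. The granulocyte markers overlapped between the groups, at 5617 (H4) and 29545 CPM (H3) in the healthy samples and 6394 (S6) to 121020 (S5) in the CIA ones. Their part in the Lrg1 difference was not tested. In S6, the highest Lrg1 sample, 12 Lrg1 UMIs stood beside 138 granulocyte marker UMIs, a ratio of 87.0 per 1000. Joint granulocytes as a whole had 1.5 per 1000. In S5, with the most marker UMIs, 27 Lrg1 UMIs stood beside 12880, or 2.1 per 1000.

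Plvap and Icam1 were lower in every CIA joint sample than in both healthy ones in CPM, but not every sample can be ordered. The values of S3 rest on 1 Plvap and 2 Icam1 UMIs, below its floor of 440 CPM. Icam1 in H4 rests on 4 UMIs, and Plvap was 501 CPM in S1 beside 511 in H3. The Plvap CIA values were 147 to 501 CPM against 511 and 1149, and the log2 fold change was -0.48 ± 0.86 (unadjusted p = 0.573). The Icam1 CIA values were 266 to 324 CPM against 477 and 511, and the log2 fold change was -0.20 ± 0.89 (unadjusted p = 0.823). Neither difference exceeded its error after scaling of the libraries. Sele had a log2 fold change of 1.08 ± 1.43 (adjusted p = 0.926) and Selp of 0.35 ± 1.03 (adjusted p = 0.983). Both genes were at 0 in the healthy joint H4, whose depth allows up to 383 CPM, and at 238 and 681 CPM in the healthy joint H3, so the healthy values alone spanned most CIA values. In the 2CIA experiment alone the estimates were -0.39 for Sele and -0.90 for Selp. Pecam1 was 0.85 ± 0.61 (adjusted p = 0.917) and Cdh5 0.92 ± 0.96 (unadjusted p = 0.339). Vcam1 (0.13 ± 1.31) and Ackr1 (-0.13 ± 1.04) had estimates near 0 with wide errors. Vwf was 68.1 and 128 CPM in the healthy joints and 71.6, 0, 9.4 and 0 in S1, S3, S5 and S6, which overlapped. Over the members 6 of 10 estimates were above 0 (median 0.24), beside 61.4% and a median of 0.93 over all unfiltered genes.

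In muscle endothelial cells 2 CIA samples were set against 4 healthy ones, and again no gene was called (0 of 394, 0% called, with 11 at an unadjusted p below 0.05 and 0 by DESeq2). Sele had a log2 fold change of -2.04 ± 1.97 (adjusted p = 0.999), with the healthy library H6 at 867 CPM (6 UMIs). Its direction was not stable: the estimate was 0.96 without H6, 0.11 with samples of at least 10 cells, 4.06 in the 2CIA experiment alone and 3.24 with red cell lysis as a term. Lysis had been applied to the healthy samples H6 and H7 and to neither CIA sample. Lrg1 was 1.38 ± 1.07 (unadjusted p = 0.195, edgeR). Its CIA values were 134 CPM in S1 (1 UMI) and 109 in S5 (18 UMIs), and the highest healthy value was 91.7 in H7 (1 UMI). A count of 0 allows 402 CPM in S1, 275 in H7 and 433 in H6, so the groups cannot be ordered. Plvap was -0.80 ± 1.06 and Pecam1 -0.51 ± 0.59, the latter at 0.20 without healthy H4 and 0.05 without CIA mouse S5. Vcam1 and Ackr1 were at 0 in all healthy muscle samples and reached 18.2 and 24.3 CPM in S5, below the floor of every other muscle library, so no fold is given. The CIA effect in joint was not shown to differ from that in muscle: 0 of 394 genes were called for the difference (0% called, 12 at an unadjusted p below 0.05, 0 by DESeq2). Of the 3 members that passed the filter, the estimate was 3.12 ± 2.44 for Sele, 1.37 ± 0.85 for Pecam1 and 0.22 ± 1.86 for Selp, each with adjusted p = 0.996 (edgeR). For Lrg1 the difference was 0.67 ± 1.65.

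**Figure D4:**
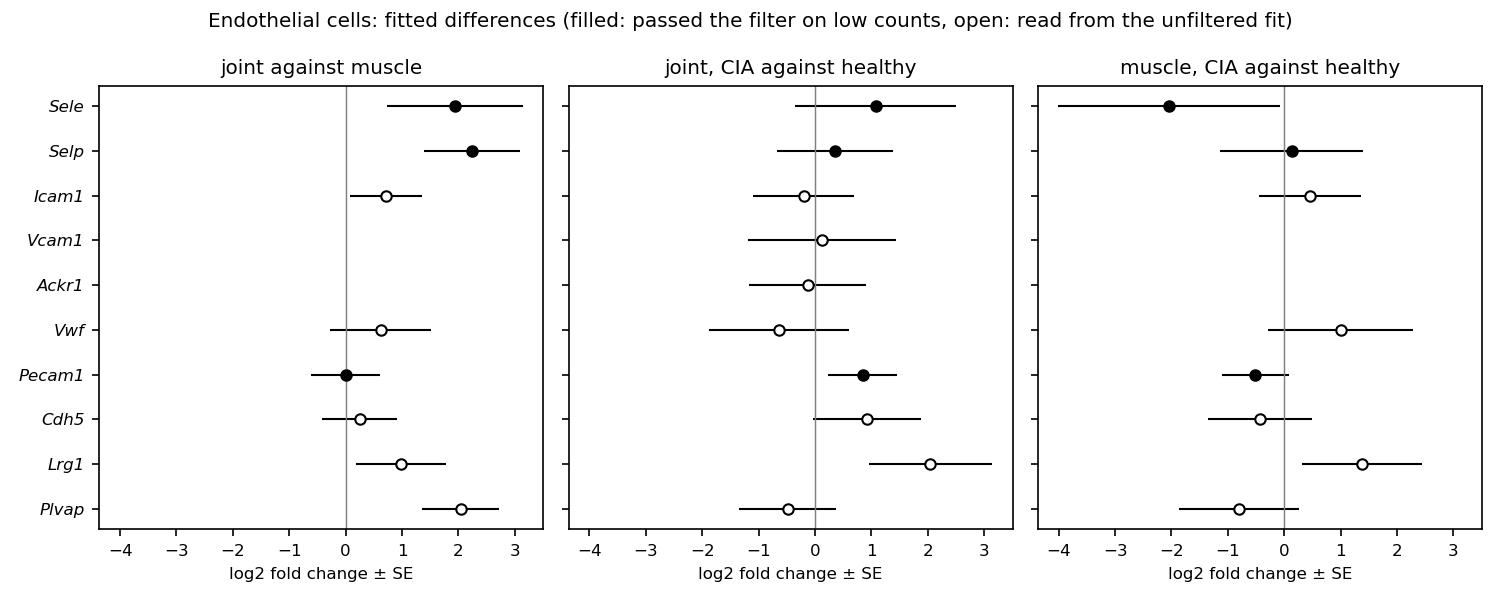
Fitted log2 fold changes with their SE for the members in endothelial cells, for joint against muscle and for CIA against healthy in each organ, with filled points for genes that passed the filter on low counts. Vcam1 and Ackr1 are drawn only for the joint, and Plvap (2.04 ± 0.68) and Selp (2.24 ± 0.85) lie farthest from 0 in joint against muscle.

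When all labelled cells of the joint were summed per mouse, Lrg1 separated the groups. It was 66.8 CPM in H3, 35.6 in H4 and 13.9 in H7, and 255 in S1, 97.1 in S3, 323 in S5, 318 in S6 and 117 in S8. Every CIA joint was above every healthy joint. The log2 fold change was 2.57 ± 0.62 with unadjusted p = 0.000954 and adjusted p = 0.118 (edgeR), which missed the threshold, in a comparison with 3 of 2364 genes called (0.127% called). It passed with DESeq2 (adjusted p = 0.00755) and without the filter on low counts (adjusted p = 0.0268), and it was 1.65 to 3.42 over 17 alternatives, all above 0. The estimate was 3.42 in the CIA experiment alone and 1.65 in 2CIA alone. In such sums, fewer cells of a type and less RNA per cell cannot be told apart.

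Granulocytes made up a larger part of most CIA joints and held 437 of the 602 joint Lrg1 UMIs. Granulocytes and neutrophils were 13.9%, 3.14% and 9.72% of labelled cells in H3, H4 and H7, and 26.8%, 17.5%, 54.2%, 15.8% and 54.2% in S1, S3, S5, S6 and S8. Outside these cells Lrg1 was 45.0, 7.36 and 0 CPM in the healthy joints (7, 1 and 0 UMIs). It was 124, 92.7, 102, 267 and 57.9 CPM in the CIA joints (61, 10, 64, 15 and 2 UMIs). S1, S3, S5 and S6 lay above the healthy values. The 2 UMIs of S8 are fewer than the 3 that a count of 0 allows, so S8 cannot be ordered against the healthy joints. The log2 fold change without granulocytes and neutrophils was 2.46, with unadjusted p = 0.00631 and adjusted p = 0.306. Per 1000 granulocyte marker UMIs, joint granulocytes held 1.5 Lrg1 UMIs, macrophages 2.9, fibroblasts 3.32 and endothelial cells 3.81. The source of the Lrg1 UMIs outside granulocytes was not tested. Joint granulocytes themselves ranged from 135 to 900 CPM in healthy and from 128 to 837 CPM in CIA mice.

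Lrg1 in muscle went the other way when all cells were summed. It was 17.9, 113, 57.2 and 162 CPM in H3, H4, H6 and H7, and 29.7, 3.89, 15.9, 68.6, 64.4 and 52.9 CPM in S1, S2, S3, S5, S6 and S8. The groups overlapped, and the log2 fold change was -1.34 ± 0.66 (adjusted p = 1, edgeR) beside 2 of 3634 genes called (0.055% called). Granulocytes and neutrophils were 7.14% to 28.0% of the healthy and 0.575% to 4.47% of the CIA muscle cells, and without them the Lrg1 estimate was 0.23. In spleen, which was not tested, Lrg1 was at 0 to 20.5 CPM in the 4 healthy mice and at 17.7 to 252 CPM in the 6 CIA mice, the severe mice S1 and S2 being highest.

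**Figure D5:**
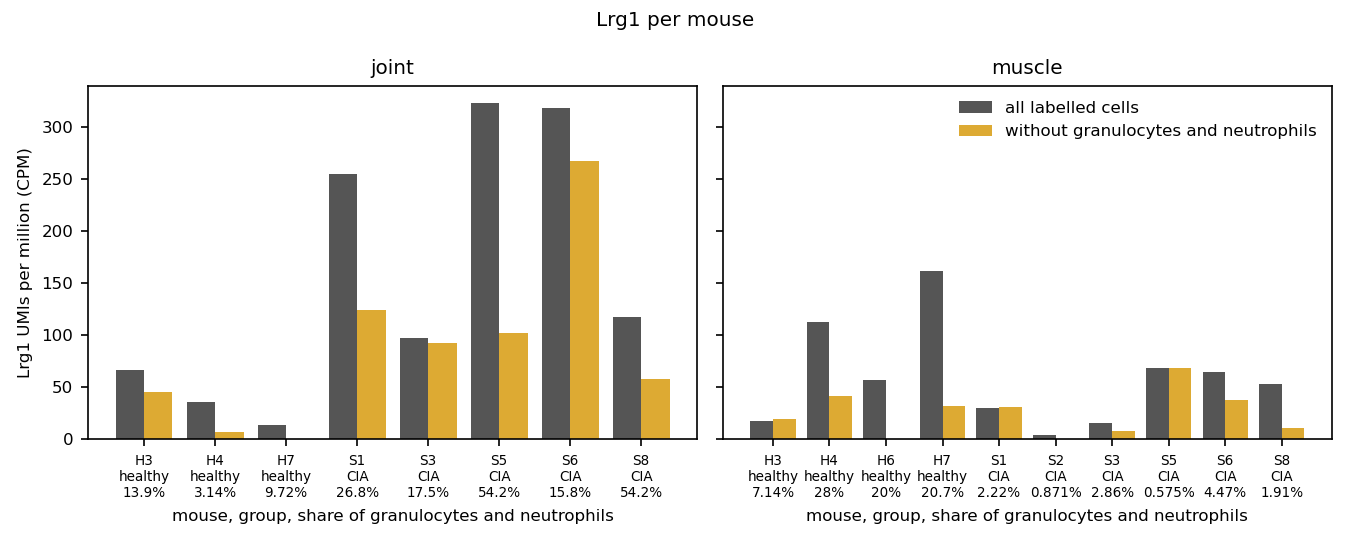
Bars give Lrg1 in CPM per mouse in joint and muscle, for all labelled cells and without granulocytes and neutrophils, whose share of cells is written under each mouse. In joint all 5 CIA mice (97.1 to 323 CPM) exceed all 3 healthy mice (13.9 to 66.8), and without granulocytes and neutrophils the ranges are 57.9 to 267 and 0 to 45.0. The 57.9 CPM of S8 rests on 2 UMIs and cannot be ordered against the healthy mice.

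The other members in all joint cells did not pass the test. Sele was 39.0, 0 and 0 CPM in H3, H4 and H7, and 28.2, 0, 30.6, 334 and 0 in S1, S3, S5, S6 and S8. Its log2 fold change of 1.95 ± 0.84 (unadjusted p = 0.0193) had adjusted p = 0.551 over the unfiltered genes. S6 stood far above the rest, and it was also the joint with the most endothelial cells, at 35.1% of its labelled cells. Selp (1.04 ± 0.67), Pecam1 (1.39 ± 0.69, unadjusted p = 0.0443) and Cdh5 (1.26 ± 0.78) had estimates above 0, and Icam1 (-0.82 ± 0.49, adjusted p = 0.558) below 0. Icam1 was 134, 249 and 111 CPM in the healthy joints and 125, 48.6, 69.7, 159 and 39.0 CPM in S1, S3, S5, S6 and S8. In all muscle cells 4 members passed the filter (Icam1, Pecam1, Cdh5 and Lrg1) and each had adjusted p = 1.

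The share of endothelial cells varied more between mice than between groups. It was 17.3%, 8.18% and 1.39% of labelled cells in the healthy joints H3, H4 and H7, and 17.9%, 5.56%, 7.96%, 35.1% and 3.61% in S1, S3, S5, S6 and S8. The means of 8.97% (n = 3) and 14.0% (n = 5) differed by 5.04 percentage points, less than the range within either group, with p = 0.607 in a two-sided exact permutation test whose smallest possible p was 0.0179. In muscle the means were 15.4% ± 15.6 (SD, n = 4) in healthy and 9.52% ± 15.6 (SD, n = 6) in CIA mice (exact permutation p = 0.505, smallest possible 0.00476). Adjusted over both organs each p was 0.607.

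In joint, fibroblasts held the second most Plvap UMIs, after endothelial cells, and the most Vcam1 UMIs (51, against 13 in endothelial cells). Plvap in joint fibroblasts was 15.8, 15.5 and 0 CPM in H3, H4 and H7 (1, 1 and 0 UMIs), and 97.9, 29.1 and 142 CPM in S1, S3 and S5 (21, 2 and 40 UMIs). S1 and S5 lay above what a count of 0 allows in H3, H4 and H7 (47.5, 46.4 and 77.6 CPM). S3 was below its own floor of 43.7 CPM and cannot be ordered against the healthy samples. S6 (52.2 CPM, 1 UMI) and S8 (0) were left out of the fit with 9 and 4 fibroblasts. The log2 fold change was 3.31 ± 0.97 (unadjusted p = 0.000614), above 0 in 14 of 14 alternatives, but no member passed the filter on low counts in fibroblasts and the adjusted p over the unfiltered genes was 0.0902. In that comparison 17 of 1014 genes were called (1.68% called). Beside these 66 Plvap UMIs, joint fibroblasts held 6 Cdh5 and 19 Pecam1 UMIs. Joint endothelial cells held 105 Plvap, 75 Cdh5 and 132 Pecam1 UMIs. The source of the Plvap UMIs in fibroblasts was not tested. Vcam1 in joint fibroblasts was 47.5, 46.4 and 25.9 CPM in the healthy and 88.5, 87.4 and 63.8 CPM in the CIA mice S1, S3 and S5, with a log2 fold change of 1.26 ± 0.80 (unadjusted p = 0.113). Icam1 in joint fibroblasts overlapped, at 31.7 to 139 CPM in healthy and 58.3 to 154 CPM in these CIA mice.

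For Lrg1 the fitted estimates were also above 0 in the fibroblasts and macrophages of CIA joints, but the CPM values cannot be ordered. In fibroblasts Lrg1 was 47.5, 0 and 0 CPM in H3, H4 and H7 and 51.3, 72.9 and 56.7 in S1, S3 and S5 (log2 fold change 2.05 ± 0.98, unadjusted p = 0.0371). A count of 0 allows 77.6 CPM in H7, above all 3 of these CIA values. In macrophages Lrg1 was 24.2, 0 and 0 CPM in the healthy and 128, 221, 83.5 and 62.7 CPM in S1, S3, S5 and S8. A count of 0 allows 252 CPM in H4, above all 4 CIA values, and 169 in H7, and the value of S8 rests on 1 UMI. The macrophage log2 fold change was 3.22 with unadjusted p = 0.00983 and adjusted p = 0.608 over the unfiltered genes, beside 28 of 273 genes called (10.3% called). Granulocyte markers moved with Lrg1 in both cell types: in fibroblasts they were 1393 to 5900 CPM in the healthy and 13231 to 29491 CPM in these CIA mice, and in macrophages 924 to 8229 and 33192 to 59263 CPM. Their part in these differences was not tested. In muscle fibroblasts no gene was called by edgeR (0 of 173, 0% called, 11 at an unadjusted p below 0.05, 3 by DESeq2), in muscle macrophages 1 of 545 was (0.183% called), and no member passed the filter in either. Icam1 in muscle fibroblasts was 88.2, 0, 98.3 and 71.7 CPM in H3, H4, H6 and H7, and 0, 275, 219 and 132 in S1, S2, S5 and S6 (log2 fold change 1.87 ± 0.93, unadjusted p = 0.0441, adjusted p = 0.666). The CIA values were above the healthy ones in 3 of 4 samples. Lrg1 and Plvap were at 0 in all 4 healthy muscle samples, in S1 and in S2, and were seen in S5 (8 and 12 UMIs in 174 fibroblasts) and S6 (8 and 4 UMIs in 85).

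Genes around the members were counted from lists of the same pathways. In joint against muscle endothelium, 0 genes of any list were called by edgeR. Of 14 pan-endothelial genes 3 were tested and all 3 had estimates below 0 (median -0.28), and of 8 capillary genes 3 were tested (median -0.68). Of 13 genes known to respond to NF-kappaB, the inflammatory transcription factor, 4 were tested and 3 were above 0 (median 0.39). No gene of the lists for venous, arterial, angiogenic, lymphatic or junction genes, cytokine receptors or enzymes of selectin ligands passed the filter. Summed, the 13 NF-kappaB response genes were 4978 and 5242 CPM in healthy and 5255 to 8502 CPM in CIA joint endothelium, against 1633 to 9533 in healthy and 3581 to 4292 in CIA muscle. In joint endothelium of CIA against healthy mice, 2 of the 4 tested NF-kappaB genes were above 0 (median 0.64), and 0 were called. The summed angiogenic list (8 genes) was 170 and 255 CPM in the healthy joint endothelium (5 and 2 UMIs in H3 and H4) and 1513, 440, 695 and 1297 CPM in S1, S3, S5 and S6 (148, 3, 74 and 28 UMIs). The values of H4 and S3 were at or below what a count of 0 allows in those libraries (383 and 440 CPM), so they cannot be ordered, and the list was not tested.

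Across 28 pools of an organ and a cell type with at least 50 cells, other endothelial genes had the patterns most like those of the endothelial members. Pearson's r of log2(CPM + 10) was 0.97 between Cdh5 and Ptprb, a phosphatase that acts on VE-cadherin, 0.93 between Vwf and Dll4, and 0.88 between Selp and Apold1. Sele was nearest to Sorbs2 (0.92), and Plvap to Pxdn, Galnt15 and Sparcl1 (0.94 each). Vcam1 was nearest to Lamb1 (0.85), and Lrg1 to Ly6g, Mmp9 and Slfn4 (0.92, 0.91 and 0.91), which are neutrophil or myeloid genes. Among the members, r was 0.91 for Vwf and Cdh5, 0.82 for Sele and Selp and 0.29 for Lrg1 and Plvap. The pools share mice and libraries and few of them hold endothelial cells, so these values describe the table and carry no test.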

How the data were processed

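Per the study's methods, the authors demultiplexed the reads with bcl2fastq, processed them with Drop-seq tools and Picard and aligned them with STAR to GRCm38. The submitters' processing notes list the builds GRCh38 and mm9, so the build behind the counts is uncertain. The deposited values are whole UMI counts per gene and cell, with cell type labels that the authors assigned from denoised counts, reference profiles and markers. Per the methods, cells above 6000 transcripts were taken out as possible doublets, while 3 labelled cells of the deposited table held over 6000 UMIs. No doublet caller was run here. The median depth was 675 UMIs per labelled cell.

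Counts were summed per mouse, organ and label, with at least 5 endothelial cells or 10 fibroblasts or macrophages per sample. Sums were tested with edgeR 4.0.16 (R 4.3.3; quasi-likelihood, TMM scaling, filterByExpr) with Benjamini-Hochberg adjustment over all genes and a threshold of 0.05. Genes below the filter come from the same fit without it. The 12 endothelial samples shared one fit. Error terms are standard errors (SE) of the log2 fold change, or SD where stated. The alternatives were DESeq2 1.42.0, other scalings, no filter, the mouse as a block, each experiment alone and each sample left out. Restricting to the 2CIA experiment, removing granulocytes and neutrophils and removing red cell and granulocyte genes were chosen after seeing the data. The fit was tested on simulated data, in which 98 of 291 tested genes were changed by 2 log2 units. Of these, 73.5% were recovered for joint against muscle endothelium (7.69% of calls false) and 38.8% for CIA against healthy joint endothelium (7.32% false). For the difference of the CIA effect between organs 4.1% were recovered (0% false). In the data 0 of 394 genes were called and 3 members passed the filter, so these rates do not give the power for the members. Joint and muscle came from the same animals. Deviations of a mouse's 2 endothelial samples from their group means correlated at -0.182, -0.282, -0.153 and 0.487 over 394 genes.

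Cells were thinned to 400 UMIs at random without replacement. Intervals are exact at 95% and, like the floors of 3 counts, cover counting error only. Promoters are RefSeq sequences on GRCm38.p6, found for 5 of the 10 members. Python 3.11.15, NumPy 2.4.6 and SciPy 1.17.1 were used. Mice were the replicates. All 10 members are named, genes of other lists would be named only if called in endothelial cells, and 3 genes of most similar pattern were taken per member. The members and lists were chosen with earlier results of these data known.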

Additional observations from a re-analysis of the deposited data

Results flagged for a closer look

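In 12 of 53 groups of 4 to 10 samples, 1 mouse lay far from the rest of its group. The rule's chance rate of 5 percent assumes normal and independent values. Low counts in libraries of unequal depth are not such values, so the 12 cannot be set against that rate. In endothelial cells the flagged values were Vwf in joint CIA (71.6 CPM in S1, the next being 9.4), Pecam1 in healthy muscle (733 CPM in H7, next 345) and Sele in healthy muscle (867 CPM in H6, next 91.7). Vwf was at 0 in S3 and S6, which allows up to 440 and 139 CPM, and the Sele value of H6 was 6 UMIs in 1 cell. In all labelled joint cells of CIA mice, S6 stood out for Ackr1 (79.6 CPM, next 12.7), Sele (334 CPM, next 30.6) and Selp (350 CPM, next 56.9), and S1 for Vwf (12.5 CPM, next 0.85). In all labelled muscle cells of CIA mice, S5 stood out for Plvap (56.4 CPM, next 7.96) and Selp (46.6 CPM, next 1.82). The other 3 rest on 1 or 2 UMIs, below what a count of 0 allows, and show no difference between mice. These are Ackr1 (59.5 CPM, 2 UMIs) and Sele (29.7 CPM, 1 UMI) in all muscle cells of S1, where a count of 0 allows 89.2 CPM, and Ackr1 in those of healthy H7 (2.75 CPM, 1 UMI, with 0 in the other healthy mice).

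Lrg1 was also counted in the cells that carry no deposited label and enter no comparison. It was 132 CPM (60 UMIs, 95% interval 101 to 170) in 767 such cells of CIA mice and 12.1 CPM (3 UMIs, 2.5 to 35.4) in 377 of healthy mice, with the intervals covering counting error only. Of the 60 UMIs, 14 came from joint S5, 14 from spleen S2, 13 from joint S1 and 7 from spleen S1, and no other library had more than 2, so the pooled value mixes organs and rests mainly on these 4 libraries. Over mice this difference was not tested.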

How the results depend on the processing

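Over 10 comparisons and 193 alternative settings, 1681 of 1853 member estimates kept their direction and their side of the threshold, 170 had the other sign without passing it, and 2 passed it only under an alternative. These 2 were Lrg1 in all joint cells, so that 1 member was called there with DESeq2 and 1 without the filter on low counts, against 0 as reported; the cause was not tested. The difference in the share of endothelial cells of CIA against healthy mice was 5.04 percentage points in joint and -5.92 in muscle. It was -0.224 to 9.23 in joint with 1 sample left out, the lowest without CIA mouse S6, and -11.6 to 0.236 in muscle, the highest without healthy mouse H4.

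With the mouse as a replicate block, 1 of 394 genes was called for joint against muscle endothelium and 0 members. Selp was then 4.15 on the log2 scale (adjusted p = 0.320), Sele 3.94, Plvap 2.92, Icam1 1.80 and Pecam1 -0.06. For the difference of the CIA effect between organs the block gave -1.14 for Sele and -3.49 for Selp, with 0 genes called. Mouse numbers are also shared between healthy and CIA mice, which are different animals, and with that number as a block all muscle cells had 9 genes called against 2, and Lrg1 at -0.07. No member was called under either block.

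Counts of all genes called moved more than those of members. In all joint cells they were 3 as reported, 48 with DESeq2 and 66 without the filter, and in all muscle cells 2, 14 and 63. In joint fibroblasts they were 17, 41 and 100, and in joint macrophages 28 and, without the filter, 11. In muscle fibroblasts they were 0, 3 and 2, in muscle macrophages 1 and, without the filter, 10. DESeq2 called 1 gene in joint endothelium and 3 between joint and muscle endothelium, against 0 with edgeR. Muscle macrophages of the 2CIA experiment alone were not run. Depth limits the endothelial comparisons: in the smallest library a count of 0 allows a level of up to 440 CPM.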
